A study of Mus musculus with 14 samples.

Results

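The lysosomal genes described here are 35 of the 55416 genes in the deposited tables. They were taken by name, with no threshold on measured values, as lysosomal hydrolases other than cathepsins with their cofactors, proteins of the lysosomal membrane, and subunits of the vacuolar proton pump (V-ATPase). All 35 were found, and all 35 passed the filter on low counts in both tissues. They comprise 12 soluble hydrolases, 3 soluble cofactors, 7 membrane proteins and 13 pump genes (6 subunits of the V1 sector, 5 of the V0 sector and 2 accessory proteins).

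The lysosome is the acidic compartment in which cells digest glycogen, lipids, glycans and proteins delivered by endocytosis and autophagy. The pump acidifies it: the V1 sector, on the cytosolic side, splits ATP and turns the V0 sector, which carries protons across the membrane. Many of these genes carry an E-box in their promoters that is bound by TFEB, a transcription factor held in the cytoplasm when the kinase mTOR is active. In skeletal muscle the lysosome is known above all for glycogen breakdown by acid alpha-glucosidase and for the autophagy that accompanies muscle loss.

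The libraries are bulk RNA-seq of lung and of a calf muscle, the gastrocnemius, taken from C57BL/6 mice (C57BL/6NCrlOri, male, aged 6 to 8 weeks). In the tumour model, cells of a line named KrasIKKaL were given into the trachea, and the series sought targets for cachexia, the wasting of cancer, and for immune side effects in muscle. The 4 groups were control muscle (3 libraries), tumour-bearing muscle (3), control lung (3) and tumour-bearing lung (5), and all mice were of this strain. What the controls received, whether libraries of a group came from separate animals, and how tumour and lung tissue were separated are unknown here. The p-values therefore rest on the variation among libraries, part of which may be technical.

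Total counts were 32476194 to 44169410 per muscle library and 47947363 to 61087315 per lung library. The tissue labels matched their markers: 8 muscle fibre genes summed to 80813 to 91904 CPM (counts-per-million) in control muscle and to 26.5 to 62.4 in control lung, and the alveolar genes Sftpc, Sftpa1 and Slc34a2 were at 0 in all 6 muscle libraries. Libraries differed in ways that touch the levels below. Mitochondrial genes took 16.2% to 34.1% of counts in control muscle and 17.6% to 24% in tumour-bearing muscle, against 1.57% to 4.30% in lung. Fold changes and CPM below use TMM scaling within a tissue. Levels compared between genes or tissues are TPM (transcripts-per-million), which are corrected for length.

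The promoters show a sequence that many members share. The genes were chosen by name, but many of them are known to carry an E-box. Its share is therefore not independent of the choice. A RefSeq table of promoter windows (GRCm38.p6, 250 bases before to 50 after the start) held 30 of the 35 genes, the others being Asah1, Atp6v1b2, Atp6v1c1, Atp6v1h and Npc1. The 7-base form TCACGTG, read on either strand, was present in 11 of the 30 (36.7%) and in 1160 of all 27025 genes in the table (4.29%). Its core CACGTG was in the same number of members (36.7%) and in 8.09% of all genes, and the longer palindrome TCACGTGA, which holds both, was in 6 members (20%) and in 1.12% of all genes. The 11 genes were Gaa, Gla, Glb1, Naglu, Lamp1, Mcoln1, Cln3, Atp6v1a, Atp6v0b, Atp6v0d1 and Atp6v0e, and 5 of them had more than 1 match. A match is a run of letters, not a measured binding site.

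The stretches that follow are shown because they hold these matches: Gaa, the member with the largest change in muscle, over its whole window before the start, and 7 others as the bases around the matches. Capitals mark TCACGTG on either strand (as CACGTGA on the other), and all are written along the gene's strand, from RefSeq GRCm38.p6.
Gaa (chr11:119267713-119267962, + strand): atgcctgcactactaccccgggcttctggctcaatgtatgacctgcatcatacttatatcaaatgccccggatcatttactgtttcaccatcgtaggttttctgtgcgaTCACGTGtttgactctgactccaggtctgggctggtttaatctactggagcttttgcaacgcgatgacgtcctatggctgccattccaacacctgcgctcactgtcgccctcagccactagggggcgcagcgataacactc
Lamp1 (chr8:13159081-13159160, + strand): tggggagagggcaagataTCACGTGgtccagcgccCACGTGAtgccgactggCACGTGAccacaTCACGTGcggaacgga
Mcoln1 (chr8:3500429-3500498, + strand): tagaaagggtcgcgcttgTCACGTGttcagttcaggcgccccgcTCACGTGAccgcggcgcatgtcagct
Naglu (chr11:101069994-101070053, + strand): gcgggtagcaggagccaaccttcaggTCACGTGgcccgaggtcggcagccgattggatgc
Glb1 (chr9:114400998-114401057, + strand): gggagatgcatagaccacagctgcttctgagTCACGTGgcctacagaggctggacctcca
Cln3 (chr7:126583337-126583396, - strand): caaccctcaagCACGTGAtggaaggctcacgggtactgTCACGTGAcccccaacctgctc
Atp6v1a (chr16:44139360-44139419, - strand): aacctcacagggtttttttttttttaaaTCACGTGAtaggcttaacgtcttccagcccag
Atp6v0b (chr4:117887330-117887389, - strand): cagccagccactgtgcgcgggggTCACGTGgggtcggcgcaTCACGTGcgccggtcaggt

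Lamp1 held 4 matches within the last 61 bases before its start, the most of any member. In Gaa the single CACGTG began 140 bases before the start. The matches of Atp6v0d1 and Atp6v0e reached into transcribed bases, 1 in each gene, and are not printed.

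**Figure D1:**
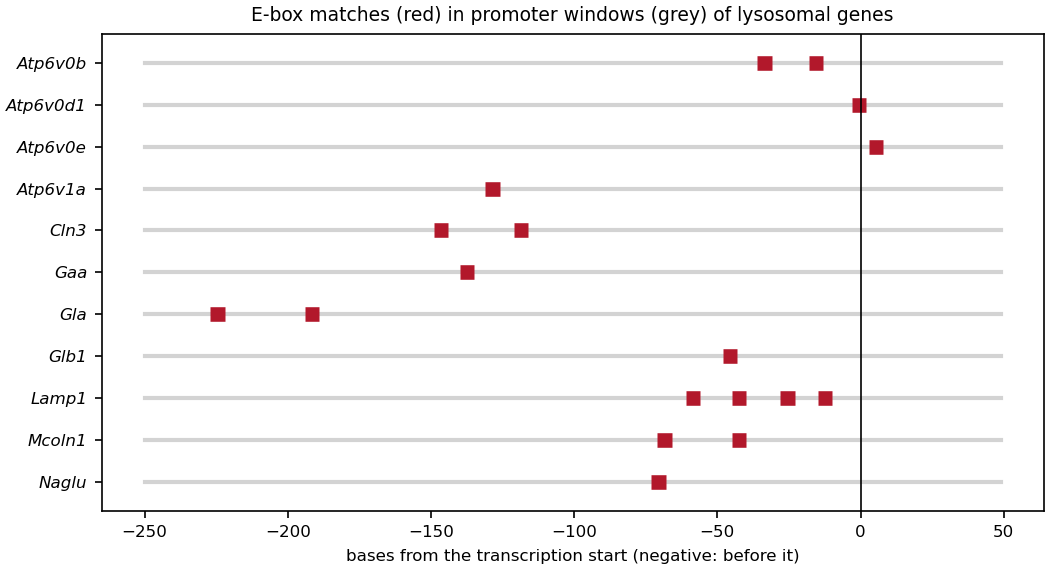
Positions of CACGTG matches (red) in the RefSeq promoter window (grey) of the 11 lysosomal genes that have one, in bases from the transcription start. Lamp1 has 4 matches, 4 genes have 2, and 6 have 1.

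Per length, the members differed widely in abundance. In control muscle the most abundant were Psap, the precursor of the saposins that help hydrolases reach lipids, with 140 ± 60.3 TPM (SD, n = 3), and Atp6v0b, a subunit of the membrane ring of the pump, with 140 ± 41 TPM. The least abundant was Gla, alpha-galactosidase A, with 0.230 ± 0.192 TPM, below Glb1, beta-galactosidase, with 0.637 ± 0.0950 TPM. In control lung Psap again led, with 479 ± 20.9 TPM, followed by the membrane glycoprotein Lamp1 with 401 ± 21.1 TPM and the cholesterol carrier Npc2 with 374 ± 23.8 TPM, and Gla was again lowest with 4.82 ± 0.499 TPM. In muscle the libraries of a group differed by much more than in lung: the 35 genes together summed to 513 to 1180 TPM over the 3 control muscle libraries and to 3577 to 3727 TPM over the 3 control lung libraries. On the scaled CPM, the spread over the 3 controls (SD as a percent of the mean) had a median over the 35 genes of 10.4% in muscle and 2.82% in lung, and 23.9% and 23.0% over the tumour-bearing libraries.

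**Figure D2:**
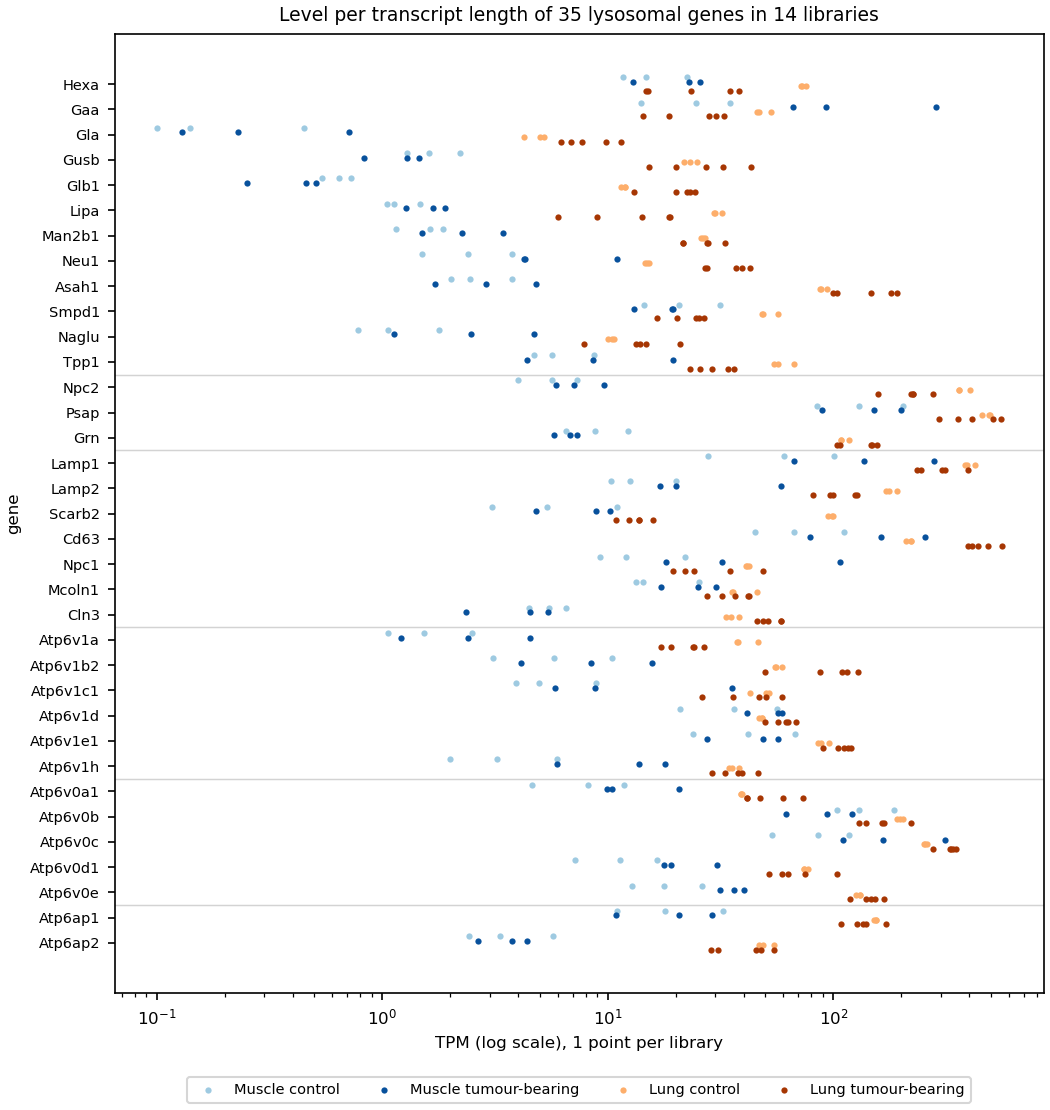
TPM of the 35 genes in each of the 14 libraries (log axis; 1 point per library; grey lines separate hydrolases, cofactors, membrane proteins, V1, V0 and accessory proteins). Control lung lies above control muscle for every gene but Atp6v1d, whose ranges overlap.

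The 2 tissues were first compared without tumour, control lung against control muscle. On TPM, 34 of the 35 genes lay higher in all 3 control lung libraries than in all 3 control muscle libraries (84.0% of all 18053 genes tested did so, and 7.38% lay lower throughout); the ranges of Atp6v1d, a subunit of the pump's central shaft, overlapped. The ratio of means ran from 1.27 for Atp6v1d to 66.1 for Npc2, and a like lift held for most genes: limma-trend on log2(TPM + 1) called 33 of 35 members higher in lung and 0 lower (33 and 0 also at an unadjusted p under 0.05), with 83.6% of all 18053 genes higher and 7.13% lower and a median log2 difference of 1.66 over all genes. Under TMM scaling, which removes such a shared shift, the edgeR test called 15 members higher in lung and 13 lower (80% called, against 81.3% of all genes tested, 44.9% higher and 36.5% lower). The members' median log2 difference was then 0.08, against 0.25 for all genes. In control muscle the 20 most abundant genes took 41.7% to 61.5% of counts, against 11.9% to 13% in control lung; their part in the gap between the scalings was not tested. With each library's log2(TPM + 1) centred on its median, 17 members were higher and 9 lower, and over all genes 4945 were higher and 10226 lower, against 8097 and 6581 under TMM and 15092 and 1287 without centring.

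The members with the smallest p in this comparison included 5 that were called higher in lung under every alternative: Npc2, Asah1, Atp6v1a, Lipa and Grn. Npc2 had 402, 361 and 360 TPM in control lung and 7.33, 5.66 and 4.0 TPM in control muscle, and its TMM-scaled log2 difference was 3.24 (SE 0.11, adjusted p = 1.25e-07). Asah1, the acid ceramidase, had 93.3, 87.3 and 87.8 TPM in lung and 3.75, 2.44 and 2.02 TPM in muscle, with a log2 difference of 2.41 (SE 0.09, adjusted p = 1.64e-07). Atp6v1a, the catalytic subunit of the pump, had 46.3, 37.4 and 37.6 TPM in lung and 2.49, 1.53 and 1.06 TPM in muscle, with a log2 difference of 1.68 (SE 0.10, adjusted p = 1.27e-06). For these 3 every lung library was more than 10 times the highest muscle library. Lipa, the acid lipase that frees cholesterol and fatty acids, had 32.1, 29.9 and 29.7 TPM in lung against 1.47, 1.05 and 1.13 TPM in muscle (log2 difference 1.83, SE 0.16, adjusted p = 1.37e-05). Grn, progranulin, had 117, 108 and 108 TPM against 12.3, 8.75 and 6.52 TPM (log2 difference 1.29, SE 0.09, adjusted p = 3.78e-06).

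The sign of this comparison depended on the scaling for many members: 17 of the 35 were negative under TMM, 13 of them called lower, and all 17 were positive on log2(TPM + 1). On the centred scale 14 were negative. Atp6v0b, Smpd1 and Gaa, among the members with the smallest p, were 3 of the 17. Atp6v0b had 204, 197 and 192 TPM in control lung and 185, 130 and 104 TPM in control muscle, so lung lay above muscle in TPM, yet its TMM-scaled log2 difference was -1.89 (SE 0.09, adjusted p = 6.02e-07). Smpd1, the acid sphingomyelinase, had 56.8, 48.2 and 48.9 TPM in lung and 31.4, 20.6 and 14.5 TPM in muscle, with a TMM-scaled difference of -1.55 (SE 0.10, adjusted p = 2.67e-06). Gaa, which breaks down glycogen, had 52.7, 47.0 and 46.0 TPM in lung and 35, 24.6 and 14.1 TPM in muscle, with a TMM-scaled difference of -1.80 (SE 0.14, adjusted p = 5.76e-06). On log2(TPM + 1) the 3 differences were 0.54, 1.24 and 1.04, each below that scale's median of 1.66 over all genes. Among the 13 pump genes, TMM scaling called 3 higher in lung and 6 lower, against 44.9% and 36.5% of all genes. On log2(TPM + 1) 11 were higher and 0 lower (11 and 0 also at an unadjusted p under 0.05), against 83.6% and 7.13% of all genes. The centred scale called 7 and 4, against 27.4% and 56.6% of all genes.

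In tumour-bearing against control muscle, 5 of the 35 genes rose and 0 fell (14.3% higher, against 8.53% of all 14373 genes tested higher and 6.75% lower). The 5 were Gaa and the sialidase Neu1 among the hydrolases, the cholesterol exporter Npc1 in the membrane, and the pump subunits Atp6v1h (V1, regulatory) and Atp6v0c (the proteolipid of the V0 ring). The median log2 fold change of the 35 was 0.38, against -0.03 for all genes, with 26 positive and 9 negative. At an unadjusted p under 0.05 there were 15 higher and 2 lower (35.7% of all genes passed that in either direction), and DESeq2 and limma-voom, like edgeR, called 0 lower after adjustment. The CPM ranges of the groups lay apart upward for 15 genes and downward for 5, against 21.1% and 22.0% of all genes.

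Gaa showed the clearest rise. It had 111, 115 and 88.1 CPM in the controls and 830, 354 and 394 CPM in the tumour-bearing libraries, a log2 fold change of 2.33 (SE 0.39, adjusted p = 0.0118). All 3 tumour-bearing values were at least 3 times the highest control, and tumour-bearing library 1 was above the other two. In TPM its mean went from 24.6 to 148, which moved it from rank 8 to rank 4 among the 35. The other called hydrolase, Neu1, which removes sialic acid, had 8.92, 8.30 and 7.03 CPM against 25.0, 12 and 19.1 CPM (log2 fold change 1.21, SE 0.32, adjusted p = 0.0379), and again the groups did not overlap.

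Among the other hydrolases, none passed the test. Naglu, which degrades heparan sulfate, had the largest positive value (1.11, SE 0.44, adjusted p = 0.11), with tumour-bearing library 2 below the lowest control and the other two above the highest. Glb1 (-0.84, adjusted p = 0.116), Gusb, beta-glucuronidase (-0.73, adjusted p = 0.112), and Smpd1 (-0.49, adjusted p = 0.203) had negative values, and in each of the 3 all tumour-bearing libraries lay below all controls. Hexa, Gla, Lipa, Man2b1, Asah1 and Tpp1 lay between 0.03 and 0.54 with overlapping groups. None of the 3 cofactors passed: the log2 fold change was 0.26 for Npc2, -0.04 for Psap and -0.31 for Grn.

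The membrane proteins had the highest median of the roles outside the pump, 0.86, with 6 of 7 values positive, but only Npc1 was called (1 of 7). Npc1 had 47.0, 37.9 and 37.2 CPM in the controls and 323, 47.5 and 133 CPM in tumour-bearing muscle (log2 fold change 2.04, SE 0.58, adjusted p = 0.0462). Tumour-bearing library 2 was within 1 CPM of the highest control, and the other two were far above it. Cd63, a tetraspanin of lysosomes and exosomes, had 95.4, 83.7 and 76.7 CPM against 171, 165 and 128 CPM, with groups apart, and missed the threshold (0.86, SE 0.26, adjusted p = 0.052). Lamp1, the major glycoprotein of the lysosomal membrane, had 206, 180 and 111 CPM against 554, 336 and 258 CPM and also missed it (1.21, SE 0.37, adjusted p = 0.0567). Lamp2 (0.91) and the calcium channel Mcoln1 (0.78, adjusted p = 0.0579) had groups apart as well, without a call. Scarb2, a glycoprotein of the lysosomal membrane, was at 0.25, and Cln3, lost in juvenile Batten disease, was the 1 negative value (-0.59).

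In the pump, 2 of 13 genes rose and 0 fell (15.4% called, against 15.3% of all genes), a share at the level of all genes. At an unadjusted p under 0.05, which 35.7% of all genes passed, 7 were higher and 0 lower, and the median was 0.62, against -0.03. Atp6v1h had 10.3, 8.63 and 7.26 CPM in the controls and 30.5, 12.8 and 47.7 CPM in tumour-bearing muscle (log2 fold change 1.79, SE 0.44, adjusted p = 0.0322), and library 3 was highest. Atp6v0c had 116, 124 and 104 CPM against 273, 193 and 204 CPM (log2 fold change 0.96, SE 0.26, adjusted p = 0.0425). Both were apart from the controls in every library. Atp6v1d had 47.0, 41.9 and 30.4 CPM against 99.4, 65.8 and 68.7 CPM without passing (0.97, SE 0.29, adjusted p = 0.052). All 6 V1 values were positive, from 0.05 for Atp6v1e1, a stalk subunit, upward, and 4 of the 5 V0 values were, the exception being Atp6v0b (-0.51). The accessory proteins Atp6ap1 (-0.17) and Atp6ap2 (-0.16) had small negative values in overlapping groups.

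The calls in muscle were not stable. Tumour-bearing library 1 was the highest of its group for 18 of the 35 genes, and the median log2 value over the control mean was 0.78 in library 1, 0.23 in library 2 and 0.48 in library 3. Without control 1, 2 or 3 the number of members called was 0 in each case (11, 9 and 11 at an unadjusted p under 0.05, by edgeR alone), while all genes called fell from 2196 to 243, 141 and 106. It was 2 without tumour-bearing library 1, 15 without library 2 (14 higher and Gusb lower) and 1, Gaa, without library 3. All genes called moved to 1432, 4513 and 1129 in these fits. Without library 2, 16.5% of all genes were called higher and 14% lower. Besides the controls, the calls of Atp6v1h, Neu1 and Npc1 also ended without tumour-bearing library 1 or 3, and that of Atp6v0c without library 3 (adjusted p from 0.0581 to 0.163 over these libraries and the controls). Without library 1 the value of Npc1 was 1.16. Upper-quartile scaling called 2 members (over all genes 760 higher and 1079 lower, against 1226 and 970). DESeq2 called 11 (2092 and 1462 of 26170 genes, unfiltered), and log2(TPM + 1) called 1 (over all genes 157 and 258). Gaa was the 1 gene called under each of the tools and scalings tried, and it missed the threshold without any of the 3 controls (adjusted p from 0.0554 to 0.075).

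Markers of other cells were read in the same libraries. The sum of 12 macrophage and monocyte genes was 84.6 to 106 CPM in control and 82.1 to 129 CPM in tumour-bearing muscle, where 1 of 11 tested genes rose and 1, Cx3cr1, fell. The 1 that rose was Cd68, a glycoprotein of macrophage lysosomes, with 1.72, 2.16 and 2.43 CPM in control and 28.6, 2.32 and 7.26 CPM in tumour-bearing muscle (2.60, SE 0.76, adjusted p = 0.0495). Its groups overlapped, and library 1 was highest. Of the 11 tested genes 4 had positive and 7 negative values, with a median of -0.32. In 5 of them all tumour-bearing libraries lay below all controls, and in 0 above. The sum of 6 neutrophil genes was 0.537 to 1.25 and 4.75 to 5.15 CPM (3 of 3 tested genes higher, with Ly6g at 0 throughout). That of 6 alveolar macrophage genes was 3.05 to 5.17 and 13.3 to 22.8 CPM (3 of 3 tested higher, with Siglecf at 0). Car4 made up most of it in control muscle, with 2.49 to 4.52 CPM there and 7 to 9.11 CPM in tumour-bearing muscle. The other 5 summed to 0.54 to 0.646 and 4.29 to 14.9 CPM. Marco and Krt79 were too low to test. Marco reached at most 0.0608 CPM, and Krt79 at most 0.190 CPM in control and 0.0386 CPM in tumour-bearing muscle. Of 6 fibroblast genes 4 fell, with sums of 647 to 1503 and 352 to 983 CPM. Without the most abundant, Dcn, the other 5 summed to 286 to 775 CPM in control and to 21.4 to 39.6 CPM in tumour-bearing muscle. The 4 red blood cell genes summed to 383 to 651 and to 465 to 8025 CPM with none called. The 8 muscle fibre genes summed to 97464 to 132432 CPM in tumour-bearing muscle, and 2 of them rose. Their part in the lysosomal values was not tested. In bulk tissue fewer cells of a type and less RNA per cell cannot be told apart.

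**Figure D3:**
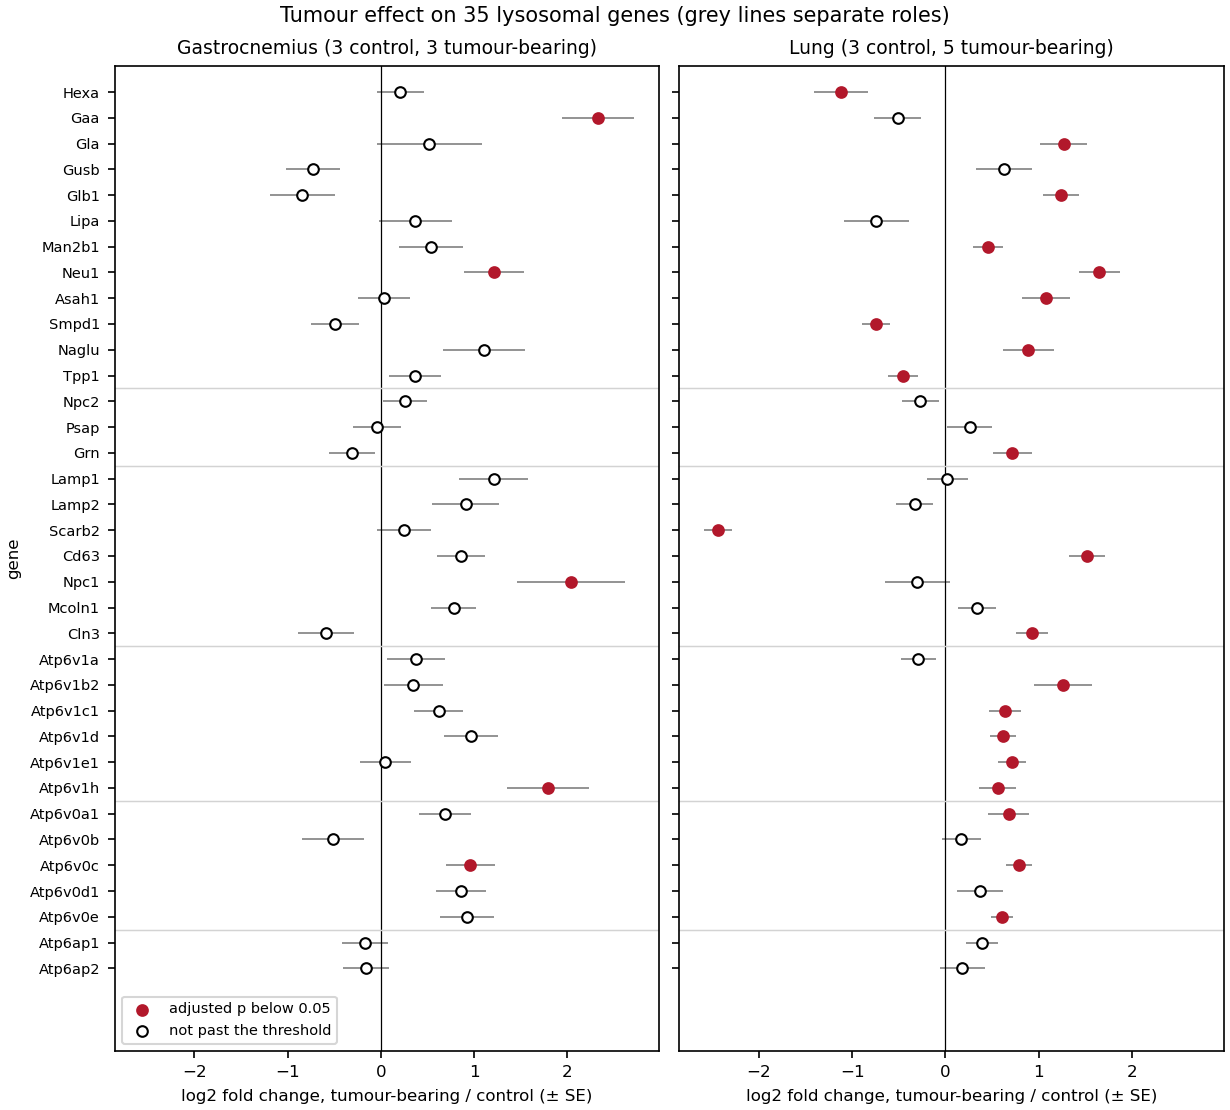
Log2 fold changes of the 35 genes (± SE, edgeR) in gastrocnemius and in lung, tumour-bearing over control; filled red points have an adjusted p below 0.05 and grey lines separate the roles. In muscle 5 genes are called, all higher; in lung 17 are called higher and 4 lower, a split that becomes 7 and 9 on uncentred log2(TPM + 1).

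In tumour-bearing against control lung, 17 of the 35 genes rose and 4 fell (48.6% higher and 11.4% lower, against 30.4% and 29.3% of all 19300 genes tested). The count of calls in either direction, 60%, was at the level of all genes, 59.7%; the difference from the background lay in the direction. The median of the 35 was 0.46, against 0.07 for all genes. The CPM ranges of the groups lay apart upward for 19 members and downward for 6, against 30.9% and 32.1% of all genes. Those that rose were the hydrolases Neu1, Gla, Glb1, Asah1, Naglu and Man2b1, the cofactor Grn, the membrane proteins Cd63 and Cln3, and 8 pump subunits. Those that fell were Scarb2, Hexa, Smpd1 and Tpp1.

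This direction depended on the scaling. On uncentred log2(TPM + 1), 7 members were higher and 9 lower (20% and 25.7%, against 18.6% and 41.4% of all genes, 3594 higher and 7994 lower), with medians of -0.12 for the members and -0.23 for all genes. With each library centred on its median, an alternative chosen after seeing the data, 17 were higher and 4 lower, but all genes then stood at 45% higher and 21.6% lower (8678 and 4167), with medians of 0.46 and 0.34. The share of members called higher was thus well above the background under TMM and close to it on both TPM scales, while the share called lower was below the background on all 3. Under every scaling and tool tried, Neu1, Cd63, Glb1, Gla, Cln3, Atp6v0c and Asah1 were called higher and Scarb2, Hexa and Smpd1 lower.

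Neu1 had 25.8, 25.9 and 25.8 CPM in the 3 control lungs and 90.7, 62.7, 57.8, 102 and 93.2 CPM in the 5 tumour-bearing ones, a log2 fold change of 1.65 (SE 0.22, adjusted p = 2.37e-04). Every tumour-bearing library was above 2 times the controls. Neu1 was 1 of 3 genes called higher in both tissues by the main test, with Atp6v1h and Atp6v0c. In lung the call of Atp6v1h was lost under 9 of 18 alternatives. In muscle the calls of Neu1, Atp6v1h and Atp6v0c were lost under 8, 6 and 7 of 16. Glb1 had 17.0, 18.4 and 18.5 CPM against 46.6, 46.6, 47.1, 42.8 and 29.5 CPM (1.24, SE 0.19, adjusted p = 5.02e-04); library 5 was lowest and still above the controls. Gla had 9.55, 8.48 and 9.55 CPM against 17.6, 16.5, 24.3, 20 and 32.2 CPM (1.27, SE 0.25, adjusted p = 0.0023), with library 5 highest. Both enzymes remove terminal galactose, Glb1 in the beta and Gla in the alpha linkage, and for both the tumour-bearing libraries lay above all controls.

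Asah1 rose by 1.08 (adjusted p = 0.00614) from 144 to 149 CPM in the controls to 198 to 425 CPM, and Naglu by 0.89 (adjusted p = 0.0184). Man2b1, a mannosidase of glycoprotein breakdown, rose by 0.46 (adjusted p = 0.0314), and its value was -0.02 on log2(TPM + 1). Hexa, the alpha subunit of beta-hexosaminidase, fell by 1.12 (SE 0.29, adjusted p = 0.00938), from 90.6 to 92.5 CPM to 25.0 to 60.5 CPM. Smpd1 fell by 0.74 (adjusted p = 0.00281) and the peptidase Tpp1 by 0.45 (adjusted p = 0.0407). Gusb (0.63), Lipa (-0.74) and Gaa (-0.51) were not called, and Gaa and Lipa lay below the controls in all 5 libraries. Among the cofactors Grn rose by 0.72 (adjusted p = 0.0149), while Psap (0.26) and Npc2 (-0.27) were not called.

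Scarb2 had the largest change of the 35 genes in lung. It had 300, 298 and 317 CPM in the controls and 44.5, 57.9, 62.6, 53.7 and 62.7 CPM in tumour-bearing lung, a log2 fold change of -2.44 (SE 0.15, adjusted p = 3.81e-06). The 5 libraries lay close together and far below the controls. Cd63 had 124, 135 and 134 CPM against 351, 336, 299, 403 and 491 CPM (1.52, SE 0.19, adjusted p = 1.79e-04), and by mean TPM it became the most abundant of the 35 in tumour-bearing lung (456 ± 65.3, n = 5). Cln3 had 17.5, 17.3 and 17.9 CPM against 35.2, 29.4, 29.6, 31.2 and 42.0 CPM (0.93, SE 0.17, adjusted p = 0.00138). Lamp1 (0.02), Lamp2 (-0.33), Npc1 (-0.30) and Mcoln1 (0.34) were not called.

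Of the 13 pump genes, 8 rose and 0 fell in lung (61.5% higher, against 30.4% of all genes higher and 29.3% lower), with a median of 0.61. Calls in either direction stood close to the 59.7% of all genes. The counts were also 8 and 0 at an unadjusted p under 0.05, which 63.8% of all genes passed. They were 8 and 0 by limma-voom (28.6% and 31.9% of all genes) and 7 and 0 by DESeq2 (19.6% and 20.2% of 32483 genes, unfiltered). On uncentred log2(TPM + 1) 1 was called higher (Atp6v0c) and 1 lower (Atp6v1a), with a median of 0.03. Of all genes 18.6% were higher and 41.4% lower on that scale. On the centred scale 7 pump genes were higher and 0 lower, against 45% and 21.6% of all genes. In V1, Atp6v1b2 (1.26), Atp6v1e1 (0.71), Atp6v1c1 (0.64), Atp6v1d (0.62) and Atp6v1h (0.56) rose, and the catalytic Atp6v1a did not (-0.29, adjusted p = 0.205). Atp6v1b2 binds nucleotide beside Atp6v1a without being catalytic, and the value of Atp6v1c1 was -0.19 on log2(TPM + 1). In V0, Atp6v0c had 168, 178 and 178 CPM against 251, 315, 301, 313 and 328 CPM (0.79, SE 0.14, adjusted p = 0.00141). Atp6v0e, a small membrane subunit, had 56.3, 56.2 and 57.8 CPM against 82.6, 87.8, 91.8, 92.7 and 76.7 CPM (0.61, SE 0.12, adjusted p = 0.00246), with no overlap. Atp6v0a1, which forms the proton channel with the ring, rose by 0.68 (adjusted p = 0.0254), and Atp6v0d1 (0.37), Atp6v0b (0.17), Atp6ap1 (0.39) and Atp6ap2 (0.18) were not called.

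Tumour-bearing lung library 5 was highest of its group for 21 of the 35 genes, and libraries 1 and 2 were lowest for 13 and 12. The median log2 value over the control mean ran from 0.12 in library 1 to 0.69 in library 5. Of the 21 calls, 10 were kept under every alternative. Without any of the 3 controls, Atp6v0a1, Grn and Naglu missed the threshold (adjusted p from 0.0512 to 0.0821), as did Man2b1 and Atp6v1h, which also missed it without tumour-bearing library 3 (0.0525 to 0.109). Tpp1 missed it without any control and without tumour-bearing library 2, 4 or 5 (0.071 to 0.116). The calls of Man2b1 and Atp6v1h were also lost with upper-quartile scaling, DESeq2, the replicate block and 1 fit of all libraries. Man2b1 was lost as well with DESeq2 size factors and no filter, and Atp6v1h on log2(TPM + 1). Over all alternatives the adjusted p reached 0.905 for Man2b1, 0.887 for Atp6v1h, 0.257 for Grn, 0.256 for Naglu, 0.131 for Tpp1 and 0.126 for Atp6v0a1.

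Cell markers moved strongly in these libraries. The sum of 12 macrophage and monocyte genes was 4937 to 5109 CPM in control and 428 to 1032 CPM in tumour-bearing lung (4 fell and 1, Mrc1, rose). Lyz2, which alveolar type 2 cells are also known to express, made up most of it in the controls, with 4576 to 4749 CPM there and 63.8 to 492 CPM in tumour-bearing lung; the other 11 genes summed to 337 to 361 and 352 to 539 CPM. The sum of 8 alveolar type 2 genes was 22004 to 23965 and 167 to 1160 CPM (8 of 8 fell), and that of 5 endothelial genes 2112 to 2261 and 101 to 129 CPM (5 of 5 fell). Alveolar type 1 and airway genes also fell, 4 of 4 each, and the alveolar macrophage sum was 485 to 1313 against 50.7 to 1168 CPM (4 of 6 fell). Its most abundant gene, Chil3, had 260 to 1081 and 42 to 1109 CPM, and the other 5 summed to 225 to 241 and 8.66 to 58.8 CPM. The neutrophil sum overlapped, 67.4 to 127 against 59.6 to 149 CPM (1 gene rose and 2 fell). Red blood cell genes fell, 4 of 4, and 2 of 6 fibroblast and 2 of 4 lymphocyte genes fell. Apart from Myh4 of the muscle fibre list, no listed gene was at 0 throughout control or tumour-bearing lung. Their part in the lysosomal values was not tested.

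**Figure D4:**
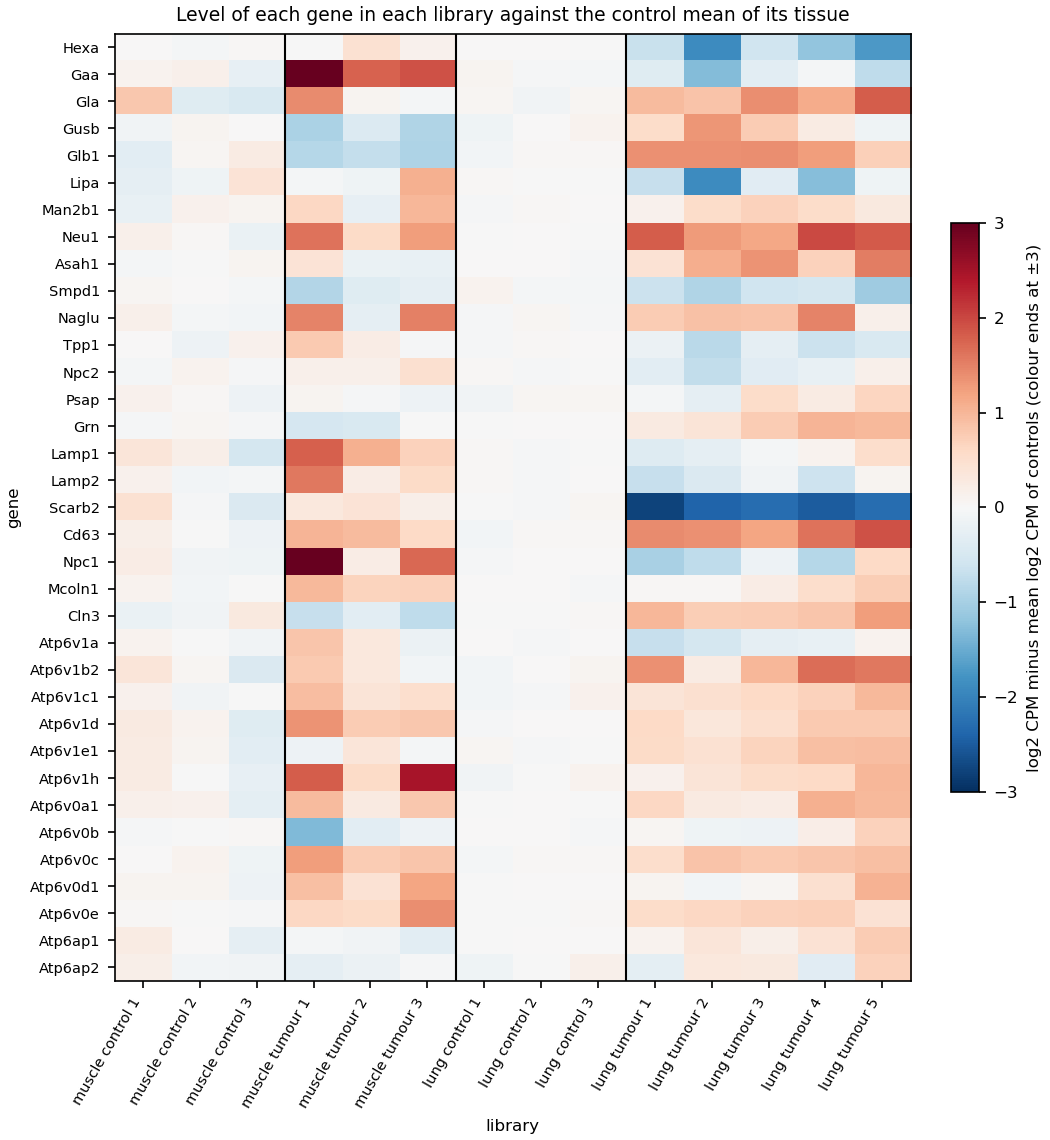
Log2 CPM of each gene in each library minus the mean log2 CPM of the controls of its tissue (colour ends at ±3; black lines separate the 4 groups). Control lung is even, muscle tumour-bearing library 1 holds the strongest reds for Gaa and Npc1, and Scarb2 is blue in all 5 tumour-bearing lungs.

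The difference of the 2 tumour effects, the log2 fold change in lung minus that in muscle, was tested in 1 fit of all 14 libraries. It passed for 11 of the 35 genes (31.4%, against 35.6% of all 19834 genes), 5 with the higher value in lung (14.3%, against 16.6%) and 6 with the higher value in muscle (17.1%, against 19.0%), shares close to those of all genes. On log2(TPM + 1) the split was 2 and 11 (over all genes 2401 and 6624, against 3287 and 3770), and with centring 6 and 4 (5887 and 3742). All 11 were hydrolases, cofactors or membrane proteins.

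The value was lower in lung for Gaa (difference -2.83, SE 0.45, adjusted p = 3.07e-04), which rose in muscle and was not called in lung. It was lower for Scarb2 (-2.69, SE 0.32, adjusted p = 2.50e-05), which fell in lung and was at 0.25 in muscle. Npc1 followed with -2.32 (SE 0.69, adjusted p = 0.0177), and without muscle tumour-bearing library 1 its difference was -1.42 (adjusted p = 0.0778). Hexa (-1.34, SE 0.41, adjusted p = 0.02), Lamp2 (-1.22, adjusted p = 0.0287) and Lamp1 (-1.18, adjusted p = 0.0455) completed this side. The value was higher in lung for Glb1 (2.07, SE 0.33, adjusted p = 2.87e-04) and Cln3 (1.5, SE 0.32, adjusted p = 0.00224), both with positive values in lung and negative ones in muscle. Gusb (1.35, SE 0.43, adjusted p = 0.0243), Asah1 (1.04, adjusted p = 0.0393) and Grn (1.03, SE 0.30, adjusted p = 0.0167) were the others. Only Scarb2, Glb1, Gaa and Cln3 were called under every alternative, and the count was 7 without muscle control 2, muscle tumour-bearing library 1, lung control 1 or lung control 2. The call of Gusb ended without muscle control 2, muscle tumour-bearing library 1 or 3, or lung control 1 or 2 (adjusted p from 0.0523 to 0.0618). That of Lamp2 ended without muscle control 2 or 3, muscle tumour-bearing library 1 (difference -0.73) or any lung control (0.0515 to 0.0839). That of Asah1 ended without any control of either tissue, muscle tumour-bearing library 2 or 3, or lung tumour-bearing library 3 (0.06 to 0.0888). That of Lamp1 ended without any of 11 of the 14 libraries, the others being muscle control 1, muscle tumour-bearing library 3 and lung tumour-bearing library 5 (0.054 to 0.136).

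For the pump no difference passed: 0 of 13 by edgeR and by limma-voom, 1 by DESeq2, and 2 at an unadjusted p under 0.05 by edgeR, which 45.0% of all genes passed. The differences ran from -1.21 for Atp6v1h (adjusted p = 0.053) to 0.91 for Atp6v1b2 (adjusted p = 0.134). Their standard errors were 0.26 to 0.46, so differences that are not large against these could have been missed. On log2(TPM + 1), Atp6v1a and Atp6v1h were called with the lower value in lung. Without muscle tumour-bearing library 2, Atp6v1e1 and Atp6v1h were called, and single pump genes were called without muscle tumour-bearing library 3 (Atp6v1a) or lung tumour-bearing library 2 (Atp6v1b2) or 5 (Atp6v1h).

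**Figure D5:**
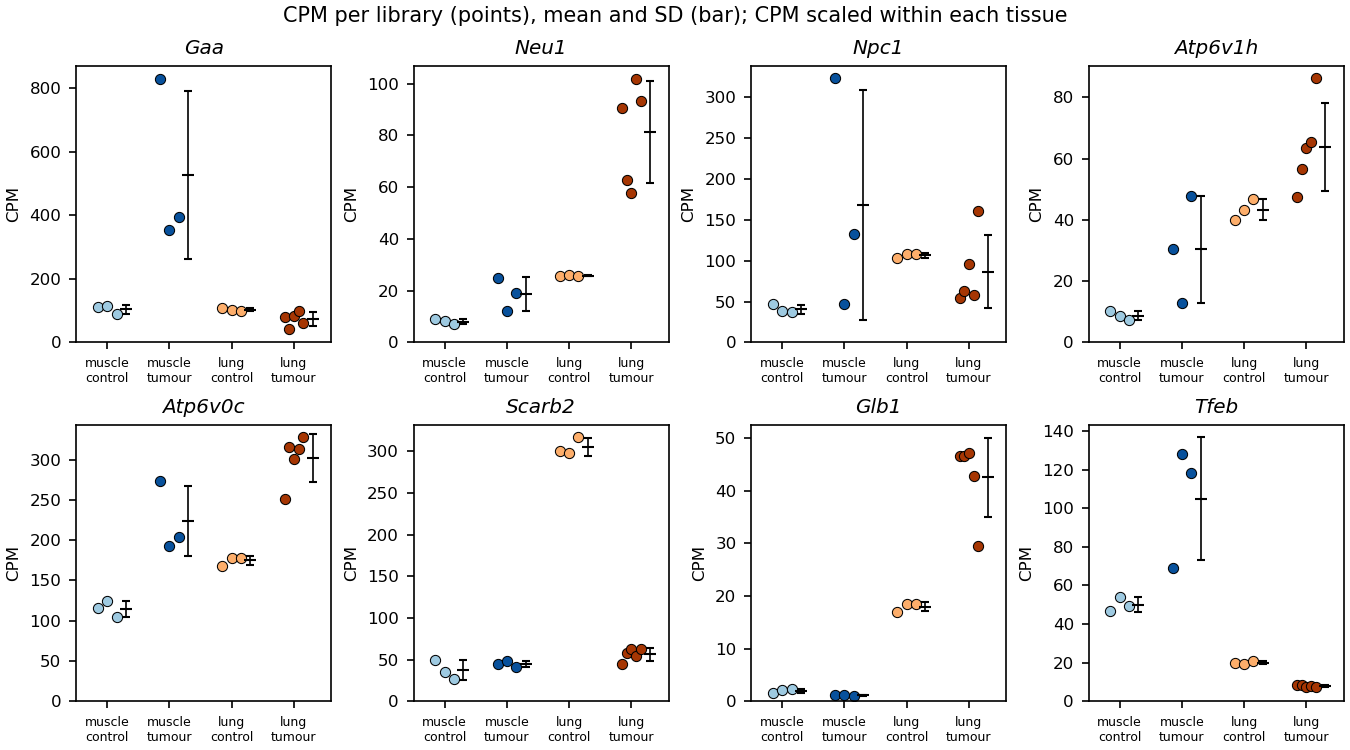
CPM per library (points) with mean and SD (bar) for 7 of the lysosomal genes and the regulator Tfeb in the 4 groups; CPM are scaled within each tissue and not comparable in level between muscle and lung. Gaa rises in muscle and lies below its controls in lung, Neu1 and Atp6v0c rise in both tissues, Scarb2 falls in lung, and Tfeb moves up in muscle and down in lung.

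Promoter matches and change were set side by side over the 30 genes with a window. In muscle 1 of the 11 genes with TCACGTG rose (Gaa; median of the 11 0.78) and 2 of the 19 without it (median 0.26). In lung 5 of 11 rose and 0 fell (median 0.37), against 8 that rose and 4 that fell of 19 (median 0.39). Of all genes tested, 8.53% rose and 6.75% fell in muscle, and 30.4% and 29.3% in lung. The counts by promoter match are of few genes, with no test.

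The wider lysosomal pathway was described by 3 lists of other genes. Of 24 other lysosomal enzymes and transporters, 1 rose in muscle and 0 fell (7 passed an unadjusted p under 0.05, 5 of them lower), with a median of 0.13 (4.17% called, against 15.3% of all genes). Ppt1, a thioesterase that removes fatty acids from proteins, was not called (-0.83, SE 0.27, adjusted p = 0.0664). In lung 5 of these 24 rose and 9 fell (20.8% and 37.5%, against 30.4% and 29.3% of all genes), and on log2(TPM + 1) 4 and 15 (16.7% and 62.5%, against 18.6% and 41.4%). Their median was -0.40, against 0.46 for the 35 members, and it was -0.75 against -0.12 on log2(TPM + 1) and -0.18 against 0.46 with centring. Galns and Ids, sulfatases of glycosaminoglycan breakdown, moved in opposite directions: Galns rose from 8.70 to 8.92 CPM to 33.7 to 62.2 CPM (2.54, SE 0.23, adjusted p = 2.62e-05), and Ids fell from 164 to 168 CPM to 22.7 to 50.4 CPM (-2.31, SE 0.23, adjusted p = 5.18e-05).

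Of 12 other pump subunits, many of them forms restricted to certain tissues, 6 could be tested in muscle and 0 were called (0 at an unadjusted p under 0.05); Atp6v0e2 was at 0.38 (adjusted p = 0.295) and Atp6v1g2 at 0.49 (adjusted p = 0.385). In lung 10 could be tested, 3 rose (Tcirg1, Atp6v1f and Atp6v1g1, named after their values were seen) and 3 fell, 60% called, against 59.7% of all genes. The median of the 10 was -0.47. On log2(TPM + 1) 2 were higher and 6 lower (20% and 60%, against 18.6% and 41.4% of all genes). With centring 3 were higher and 4 lower (30% and 40%, against 45% and 21.6%). Atp6v0e2, the second form of Atp6v0e, fell from 18.0 to 18.2 CPM to 0.269 to 0.596 CPM (-5.52, SE 0.30, adjusted p = 2.36e-06), while Atp6v0e itself rose. Atp6v1b1, the B form known from kidney, had 2.55, 3.0 and 3.10 CPM in the controls and at most 0.0982 CPM in tumour-bearing lung (-5.83, SE 0.61, adjusted p = 5.94e-05), while Atp6v1b2 rose.

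Of 21 regulators and sorting receptors, 3 of 20 tested rose in muscle and 0 fell (15%, against 15.3% of all genes called; 5 at an unadjusted p under 0.05, 1 of them lower): the kinase Mtor (1.63, SE 0.39, adjusted p = 0.0286), Tfeb (1.07, SE 0.30, adjusted p = 0.0435) and Gnptg, part of the enzyme that tags hydrolases with mannose phosphate (0.89, adjusted p = 0.0485; named after its values were seen). Mtor had 12.9, 11.5 and 10.4 CPM in control and 58.3, 20.6 and 29.2 CPM in tumour-bearing muscle. Tfeb had 46.7, 54.1 and 49.3 CPM in control and 68.9, 128 and 118 CPM in tumour-bearing muscle. In lung 5 of the 21 rose and 6 fell (52.4% called, against 59.7%). On log2(TPM + 1) 2 were higher and 8 lower (9.52% and 38.1%, against 18.6% and 41.4% of all genes). With centring 6 were higher and 5 lower (28.6% and 23.8%, against 45% and 21.6%). Tfeb had 19.7, 19.3 and 20.8 CPM in control lung against 8.35, 8.37, 7.46, 7.85 and 7.51 CPM in tumour-bearing lung (-1.33, SE 0.16, adjusted p = 1.14e-04). The groups did not overlap in either tissue, and the difference of its 2 changes was -2.41 (adjusted p = 3.19e-05, called under every alternative; named after its values were seen). Rragd, a Rag GTPase that acts upstream of mTOR, fell in lung from 14 to 15.3 CPM to 0.318 to 1.69 CPM (-3.95, SE 0.44, adjusted p = 8.62e-05). In muscle the calls of Tfeb and Mtor were lost without any of the 3 controls, and that of Tfeb also without tumour-bearing library 2 or 3 (adjusted p from 0.0503 to 0.153 for Tfeb and from 0.0839 to 0.121 for Mtor). Tfeb also missed the threshold with upper-quartile scaling, a minimum mean of 1 CPM, log2(TPM + 1) and the centred scale (adjusted p up to 0.235), and Mtor on log2(TPM + 1) (0.189).

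Some values carry an uncertainty of counting. In GENCODE M21 annotation, 10 of the 35 genes overlap a gene on the other strand and 4 overlap one on the same strand, and no source used here gives the strand option of the counting. Among the called genes, Atp6v1h overlaps Rgs20, Npc1 overlaps Rmc1, Hexa overlaps Tmem202, Grn overlaps Fam171a2, and Scarb2 overlaps a gene without a coding product, all on the other strand. Atp6v1b2 overlaps Slc18a1 in the same way. So does Lamp1, called for the difference of the tumour effects, with Grtp1. Atp6v0b, called between control tissues, overlaps a gene without a coding product on the other strand. Glb1 overlaps Tmppe on its own strand, and Cln3, Atp6v1e1 and Atp6v0a1 also overlap a gene on their own strand. Cln3 and Atp6v1e1 each overlap a gene on the other strand as well. Cd63 has 1 named pseudogene copy and Atp6v0c has 2, between which reads can be split, so their levels are uncertain.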

How the data were processed

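Gene-level RNA-seq tables of 14 libraries were used. Per the submitters' processing notes, reads were handled with Trim Galore, STAR 2.7.9a and RSEM 1.3.3. No source used here gives the genome build or the strand option. The deposited tables hold RSEM expected counts and TPM, both computed by the authors and neither filtered nor pooled. Symbols were found for 52083 of 55416 gene identifiers (94.0%).

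Expected counts were rounded to whole numbers and tested with edgeR 4.0.16 (R 4.3.3): quasi-likelihood test, TMM scaling, the filterByExpr minimum, and Benjamini-Hochberg adjustment over all genes tested, with a threshold of 0.05. Each tissue was fitted alone, the difference of the tumour effects over 14 libraries, and control lung against control muscle over 6. Standard errors were derived from the log2 fold change and its F statistic. CPM are TMM-scaled within a tissue. The tests were also run on simulated data with known changes. Replicates differed by more than sampling noise, with a chi-square per degree of freedom of 21.3 to 480 between libraries of a group.

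Alternatives were DESeq2 size factors, upper-quartile scaling, DESeq2 1.42.0, limma-voom and limma-trend on log2(TPM + 1) (limma 3.58.1), a minimum mean of 1 CPM or no filter, a replicate block, 1 fit of all libraries and leaving out each library. Centring log2(TPM + 1) on each library's median was added after seeing the data.

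The members, the 3 pathway lists and the 11 marker lists were chosen with earlier results of these data known. In each comparison the 8 members with the smallest p were given in full, and of each pathway list the 2 genes with the smallest p in each tissue; further genes are said to be named after their values were seen. Pathway and marker genes served as description. A gene that this rule named is not reported here.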

Additional observations from a re-analysis of the deposited data

Results flagged for a closer look

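Among the 5 tumour-bearing lungs, Glb1 in library 5 stood apart from the rest: it had 29.5 CPM, the lowest of the 5, and its gap to the next library was 0.754 of the range, above Dixon's critical value of 0.71. It was 1 of 35 genes tested in this way, and chance marks about 1 in 20 groups. The value was still above the highest control, 18.5 CPM.

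The tumour effect differed between lung and muscle, by the test of the difference itself in edgeR, for 11 genes. The log2 change in lung minus that in muscle was -2.83 for Gaa, -2.69 for Scarb2, -2.32 for Npc1, -1.34 for Hexa, -1.22 for Lamp2 and -1.18 for Lamp1. It was 2.07 for Glb1, 1.5 for Cln3, 1.35 for Gusb, 1.04 for Asah1 and 1.03 for Grn. The share, 31.4% of the members, was below the 35.6% of all genes.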

How the results depend on the processing

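In muscle 5 members were called by the main test, 2 with upper-quartile scaling, 11 with DESeq2 and 1 on log2(TPM + 1). On the same scale centred on each library's median (chosen after seeing the data) there were 2. With no filter there were 10, and with all 14 libraries in 1 fit 11, where Glb1 was called lower. Over all genes the calls in the same order were 2196, 1839, 3554, 415, 1149, 4031 and 3459. More genes were tested by DESeq2 and with no filter (26170 each) and in 1 fit (19834) than by the main test (14373). The cause was not tested. Leaving out each library in turn gave 0 to 15 member calls in muscle, 15 to 23 in lung, 7 to 12 for the difference of the tumour effects and 26 to 29 between control tissues. Over all genes the calls ran from 106 to 4513, 9405 to 11674, 5703 to 7641 and 13774 to 15673. On log2(TPM + 1) the sign turned for 2 of the 35 members in muscle, 9 in lung, 5 for the difference and 17 between control tissues. Of the genes given in full or called, these were Atp6v1c1 (-0.19) and Man2b1 (-0.02) in lung and Atp6v0b (0.54), Gaa (1.04) and Smpd1 (1.24) between control tissues, where 13 called members turned in all; the median of all genes moved to -0.23 and 1.66 on that scale. Calls kept under every alternative numbered 0 of 5 in muscle, 10 of 21 in lung, 4 of 11 for the difference and 5 of the 8 followed between control tissues.

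Replicate numbers were not taken as pairs: deviations of same-numbered libraries correlated at 0.356, -0.046 and 0.366 in muscle, 0.037, 0.058 and -0.001 in lung, and 0.006, 0.006 and -0.043 between control tissues, and not every library correlated best with its own number. With the replicate block, 8 members were called in muscle, 14 higher and 4 lower in lung, 3 and 5 for the difference, and 14 and 13 between control tissues. Of all genes 11.3% were then higher and 11.7% lower in muscle, and 25.6% and 27.8% in lung. The shares were 15% and 17.7% for the difference, and 43.1% and 34.9% between control tissues.

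The precision was lower in muscle than in lung: the standard error of a log2 fold change had a median of 0.29 over the 35 members in muscle (0.24 to 0.58) and of 0.20 in lung (0.12 to 0.35).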
